A study of Arabidopsis thaliana with 9 samples.

Results

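The basic leucine zipper (bZIP) genes described here are the probe sets that the array annotation pairs with exactly 1 gene whose symbol, in that annotation or in the reference gene table, begins with bZIP and a number. There were 6 such probe sets among the 10343 tested, 1 for each of 6 genes: BZIP17 (AT2G40950), BZIP28 (AT3G10800), BZIP60 (AT1G42990), BZIP53 (AT3G62420), BZIP61 (AT3G58120) and bZIP52 (AT1G06850). The symbol alone chose them among the probe sets of the table, and no measured value was used in that step. The table itself may hold only probe sets chosen on these arrays, and the family was picked with earlier results of these data known. The 6 genes are therefore not a set independent of the values. The reference gene table holds 30 genes with such a symbol, and the other genes were not analysed here. Total RNA came from whole wild-type Arabidopsis thaliana seedlings, which were grown for 4 days and taken at transfer (0 d) or following 2 d or 8 d of growth on Murashige and Skoog medium that held 2.26 µM 2,4-D, a synthetic auxin, and 0.46 µM kinetin, a cytokinin. The 0 d seedlings had received neither hormone, seedling age rose with treatment time, and no untreated seedlings of matching age were analysed here. Each time point had 3 Affymetrix arrays. Whether separate cultures gave these arrays is not in the labels, and p-values therefore reflect the spread among the arrays alone, part or all of which may be technical, and the number of arrays limits the precision.

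bZIP proteins bind DNA through a basic region and pair through a leucine zipper, as homodimers or as heterodimers with other bZIP proteins, and many bind sequences with an ACGT core. The plant family is divided into lettered groups, with roles in abscisic acid and light signalling, defence, energy balance, and the unfolded protein response, by which cells answer misfolded protein in the endoplasmic reticulum. BZIP17 and BZIP28 belong to group B and are tethered to the endoplasmic reticulum until they are cut free in the Golgi. BZIP60 acts in the same response, after its messenger RNA has been spliced by the kinase and ribonuclease IRE1. BZIP53 belongs to group S1, whose proteins pair with group C and act under low energy and in seed maturation. BZIP61 is of group E and bZIP52 of group I.

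The deposited values are linear probe set signals. A change is the difference in mean log2 signal from limma, and p-values were adjusted by Benjamini-Hochberg over all 10343 probe sets. A gene was called where the adjusted p was below 0.05 and the log2 change was at least 1 in size. Array medians ran from 445 to 546, and the change of the median probe set was 0.19 at 2 d and 0.40 at 8 d against 0 d, so changes are also given relative to it. A one-way F test over the time points gave an unadjusted p below 0.05 for 99.8% of all probe sets, all 6 bZIP genes among them. The table may thus hold only probe sets chosen on the same arrays, which would make the adjusted p-values too small. The 9 photosynthesis markers of green tissue were all measured with a name, and of 8 root markers only the root hair gene EXPA7 was. In whole seedlings, fewer cells of a type and less RNA per cell cannot be told apart.

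BZIP60 fell 2.51-fold within 2 d and stood 2.57-fold below its starting level at 8 d. bZIP52 also fell at 2 d, by 2.05-fold, and BZIP61 fell 4.60-fold between 2 d and 8 d. BZIP17 was higher at each later time but stayed short of the fold threshold, and BZIP28 and BZIP53 were lowest at 2 d without passing it. No bZIP-named gene rose past the threshold in any of the 3 comparisons. Of all probe sets, 9.75% were called and higher in 2 d vs 0 d, 25.4% in 8 d vs 0 d and 7.36% in 8 d vs 2 d. With so few bZIP-named genes, no conclusion was drawn from this absence.

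**Figure D1:**
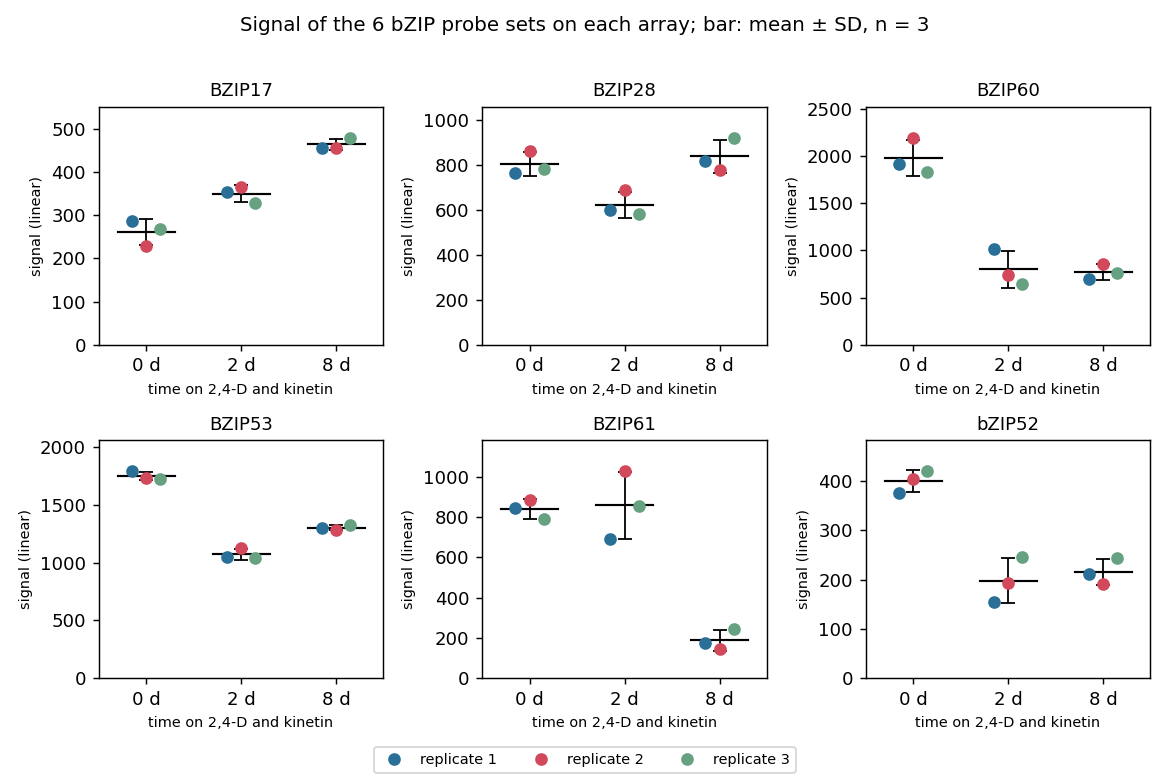
Each panel plots the linear signal of 1 bZIP gene (vertical axis) on the 3 arrays at 0 d, 2 d and 8 d (horizontal axis), with the mean and SD. BZIP60 went from a mean of 1978 at 0 d to 799.9 at 2 d, whereas BZIP61 stayed near its starting level at 2 d and stood at 189 at 8 d.

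In the comparison of 2 d with 0 d, which asked what had changed early on the hormones, 2 of the 6 genes were called, both lower, against 14.9% of all probe sets called, 5.2% called and lower and 9.75% called and higher. With no minimum fold, 5 of the 6 passed the adjusted p, against 63.5%. The median change of the 6 genes was -0.54, against 0.19 for all probe sets, and 1 of the 6 lay above that median. The arrays of the 2 groups did not overlap for 5 of the 6 genes, which was also true of 70.4% of all probe sets. At 8 d against 0 d, the comparison with the longest treatment, 2 of the 6 were called, both lower, against 43.5% called, 18.1% called and lower and 25.4% called and higher among all probe sets, and 5 of 6 passed the adjusted p alone, against 90.1%. Their median change was -0.66, against 0.40 for all, and groups did not overlap for 5 of 6, against 91.9%. Between 2 d and 8 d, the later interval, 1 of the 6 was called, lower, against 22.1% called, 14.7% called and lower and 7.36% called and higher, and 4 of 6 passed the adjusted p alone, against 76.5%. The median change was 0.21, against 0.26 for all, and groups did not overlap for 4 of 6, against 78.7%. With 6 genes these shares are coarse, and no test was made over the 6 together. The counts at 8 d against 0 d and at 8 d against 2 d were near or below the share of all probe sets called in either direction. Against the share called and lower, 2 of 6 at 8 d against 0 d was above 18.1%, and 1 of 6 from 2 d to 8 d was near 14.7%.

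Among the genes of the unfolded protein response, BZIP60 had signals of 1911, 2191 and 1830.2 at 0 d, of 1018, 736 and 646 at 2 d, and of 693, 857 and 757 at 8 d. Every treated array lay below every 0 d array, and the 2 d and 8 d arrays overlapped. The mean went from 1978 ± 189.5 (SD, n = 3) to 799.9 ± 194 at 2 d and 769 ± 82.3 at 8 d. The log2 change was -1.33 (SE 0.17) at 2 d (limma, adjusted p = 0.000126) and -1.36 (SE 0.17) at 8 d (limma, adjusted p = 2.69e-05), that is 2.51-fold and 2.57-fold lower. Of all probe sets 8.04% had a larger absolute change at 2 d, and 26.0% at 8 d. Between 2 d and 8 d BZIP60 was at -0.035, with a 95% interval from -0.40 to 0.33. The deposited values give 1 signal for the gene, and spliced and unspliced BZIP60 messenger RNA were not analysed separately here.

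BZIP17 had signals of 288, 229 and 268 at 0 d, of 355, 366 and 328 at 2 d, and of 457, 457 and 479 at 8 d. The arrays of the 3 time points did not overlap and lay in the order of time. Its change was 0.42 (SE 0.11) at 2 d (limma, adjusted p = 0.0068), or 0.24 above the median of all probe sets, and 0.83 (SE 0.11) at 8 d (limma, adjusted p = 4.31e-05), or 0.43 above it. The 8 d change had a 95% interval from 0.59 to 1.07, so a change at the threshold of 1 lay within it. From 2 d to 8 d it was at 0.41 (SE 0.11), 0.15 above the median. None of the 3 changes was called. The 2 d change did not pass the adjusted p of 0.05 after quantile normalization (0.17, limma, adjusted p = 0.22) or median centring (0.25, limma, adjusted p = 0.075), so the 5 genes that passed it at 2 d include BZIP17 only under the other scalings. After hybridisation control centring the change from 2 d to 8 d was at 0.29 (limma, adjusted p = 0.059).

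BZIP28, the other tethered factor of group B, had signals of 764, 863 and 783 at 0 d, of 599.9, 687 and 580.1 at 2 d, and of 818, 776 and 919 at 8 d. The 2 d arrays were below all others, while 0 d and 8 d overlapped. The change was -0.37 (SE 0.11) at 2 d (limma, adjusted p = 0.015) and 0.43 (SE 0.11) from 2 d to 8 d (limma, adjusted p = 0.0056), neither reaching the fold threshold. After hybridisation control centring neither passed the adjusted p, at -0.17 (limma, adjusted p = 0.28) and 0.31 (limma, adjusted p = 0.062), and the 2 d change of BZIP28 also missed it without 0 d replicate 2 (limma, adjusted p = 0.054) or 2 d replicate 3 (limma, adjusted p = 0.052). At 8 d against 0 d it was at 0.059, with a 95% interval from -0.19 to 0.31, and relative to the median of all probe sets it was at -0.34.

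Ratios between 2 probe sets on the same array are unaffected by a scaling factor applied to the whole array, though not by quantile normalization, and show unequal change but no order of abundance. The log2 ratio of BZIP17 to BZIP28 was -1.62 ± 0.26 (SD, n = 3) at 0 d, -0.83 ± 0.075 at 2 d and -0.85 ± 0.088 at 8 d. It was higher on all treated arrays than on any 0 d array, by 0.79 at 2 d and 0.77 at 8 d, and the 2 d and 8 d arrays overlapped. After quantile normalization the gap between the 2 genes narrowed, with BZIP17 at 0.17 and BZIP28 at -0.45 at 2 d, and BZIP17 at 0.48 and BZIP28 at -0.057 at 8 d. The ratio of BZIP60 to BZIP28 went from 1.30 ± 0.064 to 0.34 ± 0.37 at 2 d and -0.13 ± 0.23 at 8 d. That of BZIP60 to BZIP17 went from 2.92 ± 0.29 to 1.17 ± 0.30 and 0.72 ± 0.16, a difference of -1.75 at 2 d and -2.20 at 8 d, without overlap between any 2 time points. For each of these 3 pairs, both treated times against 0 d gave an exact two-sided permutation p of 0.1, the smallest that 3 arrays against 3 allow, so this test could not reach 0.05. The adjusted p over the 12 ratio comparisons made was 0.171 for each, and the pairs were picked after the values were known.

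**Figure D2:**
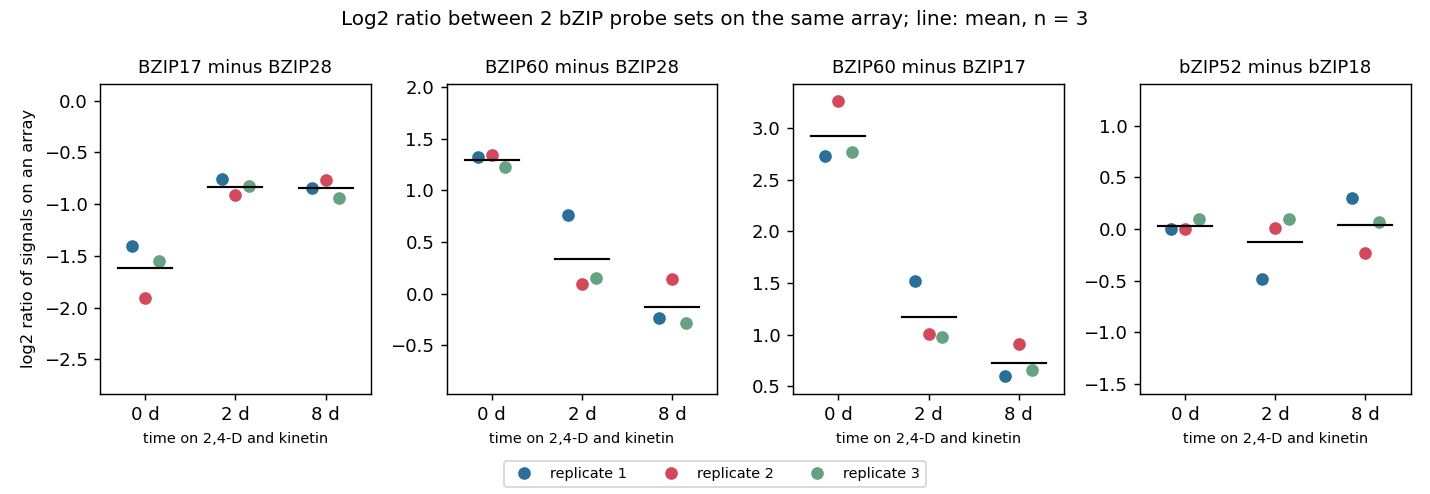
Each panel plots the log2 ratio between the signals of 2 bZIP genes on the same array (vertical axis) at 0 d, 2 d and 8 d (horizontal axis), with a point for each array and a line at the mean. The ratio of BZIP17 to BZIP28 was higher at both treated times than at 0 d, both ratios of BZIP60 were lower, and the ratio of bZIP52 to bZIP18 overlapped between all 3 times.

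The other measured genes of this response were few. Of a list of 21 sensors, proteases and chaperones linked to these factors, 2 were measured with a name. Neither was called in any comparison, against 14.9%, 43.5% and 22.1% of all probe sets at 2 d, at 8 d and between them. S1P, the site-1 protease that cuts BZIP17 in the Golgi, had signals of 191, 232 and 177 at 0 d, of 256, 214 and 267 at 2 d, and of 442, 329 and 388 at 8 d. All of its 8 d arrays were above the others, and 0 d and 2 d overlapped. Its change was 0.95 (SE 0.15) at 8 d (limma, adjusted p = 0.000161), 0.55 above the median of all probe sets. Over the 19 alternative fits that held S1P, this change ran from 0.54 to 1.06. It passed the fold threshold in 3 of them: without 0 d replicate 2 or 8 d replicate 2 (both 1.06) and after hybridisation control centring (1.03). ATERDJ3B, a co-chaperone of the endoplasmic reticulum, was at 0.039 at 2 d and 0.42 at 8 d, close to the median of all probe sets at 8 d.

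BZIP53 had signals of 1789, 1732 and 1727 at 0 d, of 1046, 1126 and 1045 at 2 d, and of 1299, 1285 and 1326 at 8 d. The 3 time points did not overlap, with 2 d lowest and 8 d between, and at 0 d and 8 d its arrays differed by a coefficient of variation under 2% (1.98% and 1.63%). The change was -0.71 (SE 0.087) at 2 d (limma, adjusted p = 0.000119) and -0.42 (SE 0.087) at 8 d (limma, adjusted p = 0.00099), which is 1.63-fold and 1.34-fold lower, and from 2 d to 8 d it was 0.28 (SE 0.087), 0.025 above the median of all probe sets. None was called, and the last of these did not pass the adjusted p after median centring (0.18, limma, adjusted p = 0.087) or hybridisation control centring (0.16, limma, adjusted p = 0.22). Relative to the median of all probe sets BZIP53 was at -0.89 at 2 d and -0.83 at 8 d.

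Of the 16 listed genes of the SnRK1 kinase and of the low-energy response, which C and S1 factors help to control, 2 were measured with a name. Neither was called in any comparison, against 14.9%, 43.5% and 22.1% of all probe sets at 2 d, at 8 d and between them. AKINBETA1, a subunit of the kinase, was at -0.68 (SE 0.17) at 2 d and -0.80 (SE 0.17) at 8 d, the latter called only after median centring, at -1.08. IVD, an enzyme of branched-chain amino acid breakdown, was at -0.78 (SE 0.17) at 2 d, -0.26 at 8 d and 0.51 from 2 d to 8 d.

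BZIP61, a relative of BZIP34, which acts in pollen development, had the largest change of the 6 genes. Its signals were 844, 886 and 788 at 0 d, 691, 1026 and 857 at 2 d, and 175, 145 and 246 at 8 d. The 0 d arrays lay within the range of the 2 d arrays, and every 8 d array lay far below both. The mean went from 839 ± 49.4 (SD, n = 3) at 0 d and 858 ± 168 at 2 d to 189 ± 52.2 at 8 d. BZIP61 fell, with a log2 change of -2.19 (SE 0.20) at 8 d against 0 d (limma, adjusted p = 3.42e-06) and of -2.20 (SE 0.20) from 2 d to 8 d (limma, adjusted p = 1.02e-05), that is 4.55-fold and 4.60-fold lower. The 8 d signals are low, at a mean percentile of 14.1 on their arrays with a coefficient of variation of 27.7%, which makes these folds imprecise. Of all probe sets 1.98% had a larger absolute change in the later interval, and 7.18% at 8 d against 0 d. At 2 d the change was 0.014, with a 95% interval from -0.42 to 0.45.

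Photosynthesis markers were lower on the same arrays as BZIP61. None of the 9 was called at 2 d, against 14.9% of all probe sets called and 5.2% called and lower. Their 2 d changes ran from -0.30 to -0.048, against 0.19 for the median of all probe sets. All 9 were lower at 8 d, without overlap of arrays against either 0 d or 2 d. Groups also did not overlap for 91.9% and 78.7% of all probe sets, in either direction. Of the 9, 7 were called lower at 8 d against 0 d and 6 from 2 d to 8 d. The shares of all probe sets called and lower were 18.1% and 14.7%. Their summed signal ranged from 105967 to 121154 at 0 d, from 93127 to 114055 at 2 d and from 39749 to 53955 at 8 d. The part of tissue make-up in the fall of BZIP61 was not tested.

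bZIP52 had signals of 376, 405 and 419.5 at 0 d, of 154, 194 and 247 at 2 d, and of 212, 191 and 243 at 8 d. All treated arrays were below all 0 d arrays, and 2 d and 8 d overlapped. It fell by 1.04 (SE 0.16) at 2 d (limma, adjusted p = 0.000476), from 400.1 ± 22.0 to 198 ± 46.4 (SD, n = 3), or 2.05-fold. This change lay at the fold threshold: the call ended without 2 d replicate 1 (-0.87), the lowest of the 3, with array weights (-0.97), and after hybridisation control centring (-0.84) or adding 16 (-0.98) or 64 (-0.84) to each signal. At 8 d it was at -0.90 (SE 0.16; limma, adjusted p = 0.000449), called only after quantile normalization (-1.25) or median centring (-1.17). Between 2 d and 8 d it was at 0.14, with a 95% interval from -0.22 to 0.50.

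The root hair marker EXPA7, the 1 measured gene of the 8 on the root list, was lower on the same arrays as BZIP60 and bZIP52. Its signal ranged from 410.4 to 606 at 0 d, from 61.6 to 131 at 2 d and from 62.7 to 112 at 8 d. The 2 d and 8 d signals are low, at mean percentiles of 4.7 and 4.6 on their arrays. Root hairs were not counted, and a part of tissue make-up in these falls was not tested.

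**Figure D3:**
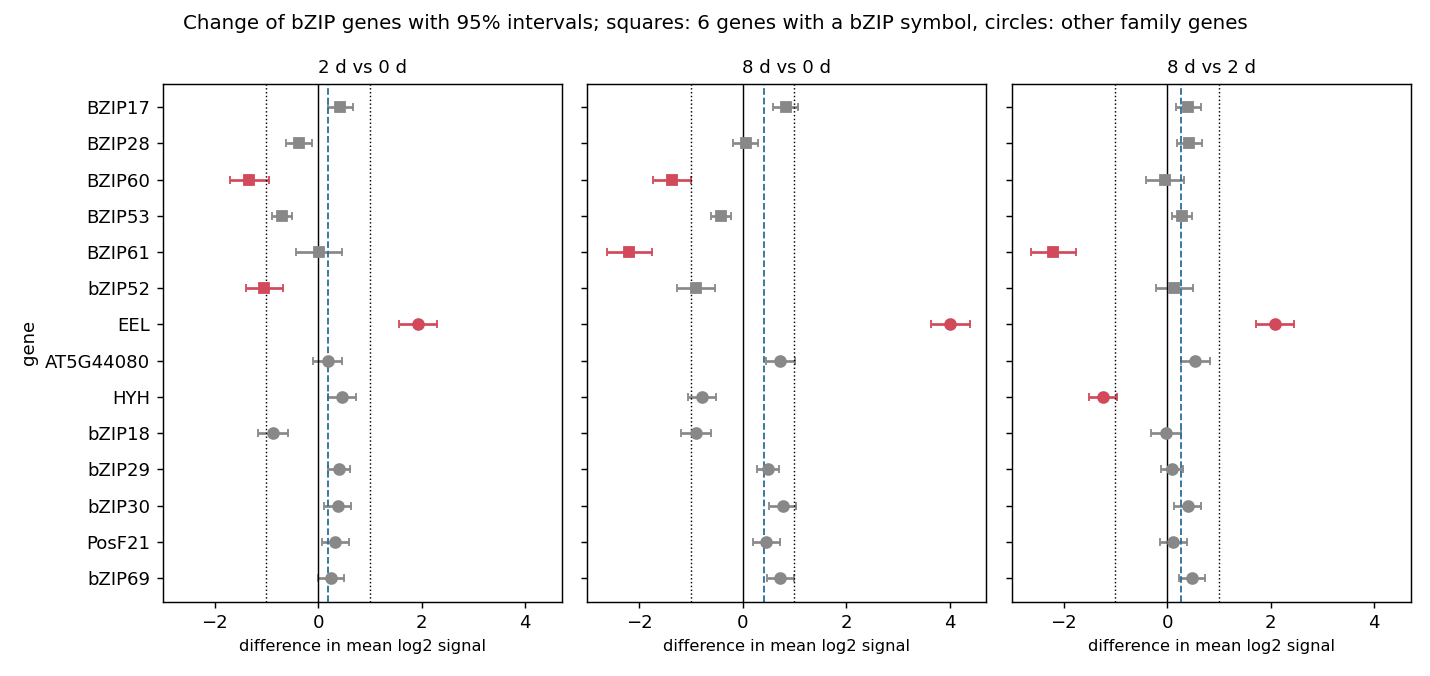
The 3 panels plot the difference in mean log2 signal with its 95% interval (horizontal axis) for 14 bZIP family genes (vertical axis) in 2 d vs 0 d, 8 d vs 0 d and 8 d vs 2 d, with called genes in red, dotted lines at -1 and 1 and a dashed line at the median of all probe sets. Among the genes with a bZIP symbol, BZIP60 and bZIP52 were called lower at 2 d, BZIP60 and BZIP61 at 8 d and BZIP61 between 2 d and 8 d, while EEL was called higher in all 3 panels.

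A list of 73 family loci gave 8 further measured genes whose symbol does not begin with bZIP. Of these 8, 1 was called at 2 d, against 14.9% of all probe sets, 1 at 8 d against 0 d, against 43.5%, and 2 from 2 d to 8 d, against 22.1%, so the count at 8 d against 0 d was below the share of all probe sets and the others were near it. Their median change was 0.36 at 2 d and 0.61 at 8 d against 0 d, above the median of all probe sets, where that of the 6 bZIP-named genes was below it. Over all 14 family genes the medians were 0.22 and 0.26, against 0.19 and 0.40 for all probe sets.

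Of these genes, 5 belong with bZIP52 in group I, and 1 of them, AT2G40620 (bZIP18), was likewise lower on all treated arrays. Its signals were 376, 405 and 393 at 0 d, 216, 193 and 231 at 2 d, and 172, 226 and 232 at 8 d. As with bZIP52, the treated arrays lay below the 0 d arrays and overlapped each other. AT2G40620 was at -0.88 (SE 0.13) at 2 d and -0.91 (SE 0.13) at 8 d, not called, though it was called after quantile normalization and median centring at both times. The log2 ratio of bZIP52 to AT2G40620 on the same array was 0.030 ± 0.054 (SD, n = 3) at 0 d, -0.13 ± 0.31 at 2 d and 0.042 ± 0.27 at 8 d, with overlap throughout (exact two-sided permutation p = 0.9 at 2 d and 1 at 8 d, which does not show that the 2 genes acted alike).

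The other 4 measured genes of group I lay on the other side of 0. At 2 d they ranged from 0.25 for AT1G06070 (bZIP69) to 0.41 for AT4G38900 (bZIP29), a regulator of cell number in leaves and root meristems, and AT1G06070 was at -0.0055 after quantile normalization. At 8 d against 0 d they ranged from 0.46 for AT2G31370 (PosF21), a partner of LBD factors in auxin-induced callus formation, to 0.78 for AT2G21230 (bZIP30), which acts in meristems and flowers. None was called, and relative to the median of all probe sets the 4 were between 0.067 and 0.22 at 2 d and between 0.053 and 0.37 at 8 d.

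PosF21 had signals of 272, 258 and 209 at 0 d, of 289, 315 and 323 at 2 d, and of 327, 329 and 352 at 8 d. All treated arrays were above the 0 d arrays, and at 8 d AT2G31370 was 1.37-fold higher than at 0 d, a log2 change of 0.46 (limma, adjusted p = 0.00369). That change was 0.053 above the median of all probe sets, and it no longer passed the adjusted p after quantile normalization (0.057, limma, adjusted p = 0.65) or median centring (0.18, limma, adjusted p = 0.16). The same held at 2 d, where 0.33 became 0.062 and 0.16, and the 2 d change also missed it when 0 d replicate 3 was left out (0.22), and likewise for replicate 2 (0.32) or replicate 3 (0.30) of the 2 d arrays. Of the 10 genes listed with it as LBD factors, auxin inputs and targets, LBD16 and GH3.3 were measured with a name. Both rose at 2 d and at 8 d against 0 d, where 9.75% and 25.4% of all probe sets were called and higher. LBD16 rose by 1.41 (SE 0.28) and 1.82 (SE 0.28), and GH3.3 by 2.78 (SE 0.14) and 2.66 (SE 0.14). LBD16, which acts in the founding of lateral roots and callus, had signals of 139, 172 and 121 at 0 d, of 534, 291 and 357 at 2 d, and of 580, 671 and 331 at 8 d. GH3.3, which encodes an auxin-conjugating enzyme, was between 1115 and 1567 at 0 d and between 8316 and 10212 at 2 d.

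EEL (AT2G41070), a group A factor that competes with ABI5 at seed gene promoters, had the largest change of the 14 family genes. Its signals were 82.0, 89.4 and 57.5 at 0 d, 282, 269 and 308 at 2 d, and 1207, 1066 and 1377 at 8 d. The 3 time points were far apart, in the order of time. EEL rose by 1.93 (SE 0.17) at 2 d (limma, adjusted p = 1.64e-05), by 4.01 (SE 0.17) at 8 d against 0 d (limma, adjusted p = 6.33e-08) and by 2.08 (SE 0.17) from 2 d to 8 d (limma, adjusted p = 6.18e-06). Of all probe sets 0.406% had a larger absolute change at 8 d against 0 d. The 0 d signals are low, which makes the 16.1-fold rise imprecise, and adding 64 to each signal left it at 3.19 on the log2 scale and the 2 d rise at 1.33.

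AT5G44080, the other measured locus listed in group A, was at 0.19 at 2 d and 0.73 (SE 0.13) at 8 d against 0 d. Of 12 genes listed as induced through group A factors, only the dehydrin gene COR47 was measured with a name. COR47 fell by 1.31 (SE 0.19) at 2 d, was at 0.20 at 8 d against 0 d and rose by 1.51 (SE 0.19) from 2 d to 8 d. None of 21 listed abscisic acid receptors, phosphatases and kinases was measured with a name.

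HYH (AT3G17609), the homolog of the light-signalling factor HY5, had signals of 251, 316 and 275 at 0 d, of 378, 393 and 379 at 2 d, and of 141, 172 and 176 at 8 d. The 3 time points did not overlap, with 2 d highest and 8 d lowest. HYH was at 0.46 (SE 0.12) at 2 d and -0.79 (SE 0.12) at 8 d against 0 d, neither called, and fell by 1.24 (SE 0.12) from 2 d to 8 d (limma, adjusted p = 1.70e-05). The 8 d change passed the fold threshold after quantile normalization (-1.15) and median centring (-1.06), and the fall from 2 d to 8 d fell short of it after adding 64 to each signal (-0.98). As for BZIP61, the photosynthesis markers were lower on the same 8 d arrays, and their part in the fall was not tested.

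**Figure D4:**
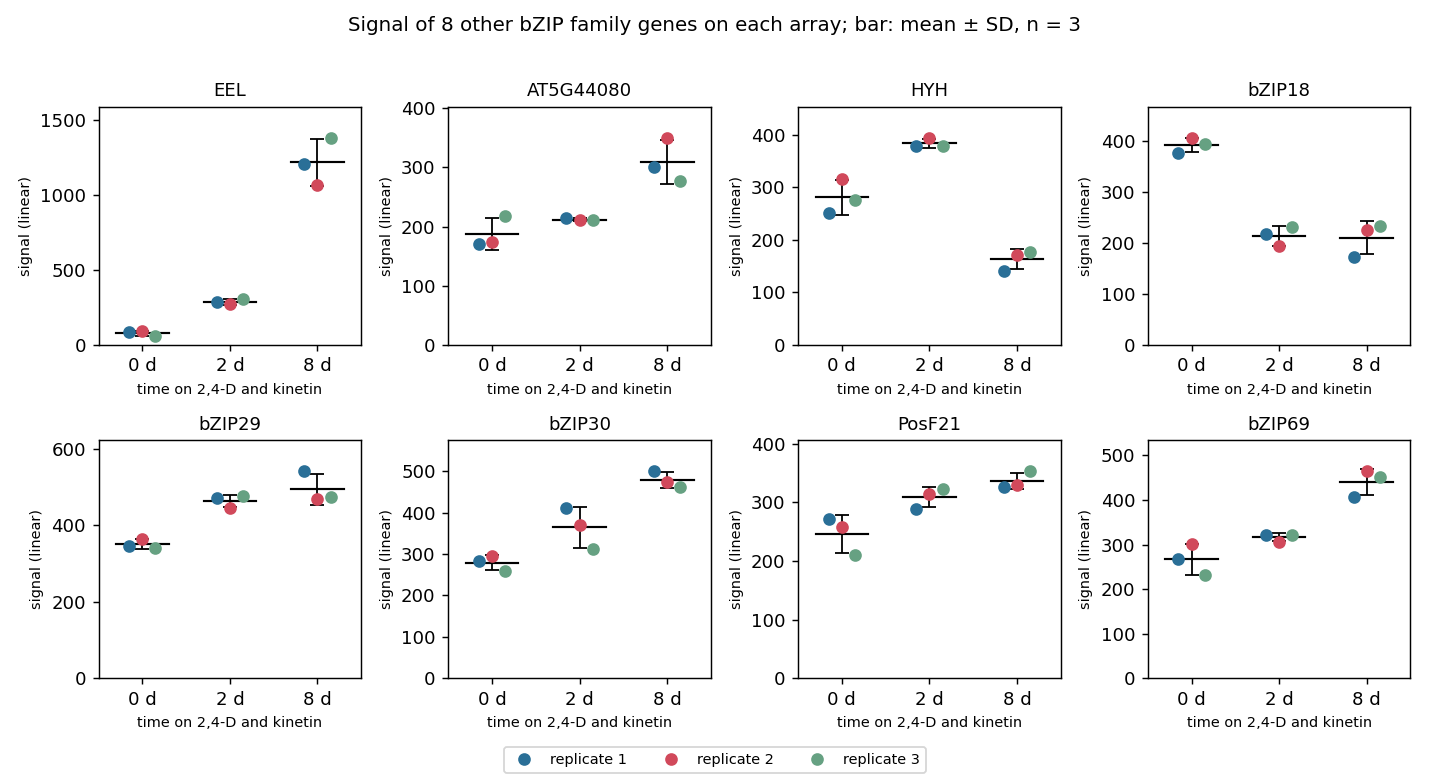
Each panel plots the linear signal (vertical axis) of 1 further bZIP family gene on the 3 arrays at 0 d, 2 d and 8 d (horizontal axis), with the mean and SD. EEL rose from a mean of 76.3 at 0 d to 1217 at 8 d, HYH was highest at 2 d with 384, and bZIP18 was lower at both treated times.

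The remaining lists held little. Of 19 genes listed as partners or targets of the TGA factors of group D, only GSTU25, a glutathione transferase, was measured with a name. It was at -0.30 (SE 0.19) at 2 d, rose by 1.2 (SE 0.19) at 8 d against 0 d, a call that ended after median centring (0.93) and without 8 d replicate 3 (0.98), and rose by 1.5 (SE 0.19) from 2 d to 8 d. No listed gene of HY5 light signalling, of the zinc response or of the FT and FD flowering module was measured with a name.

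**Figure D5:**
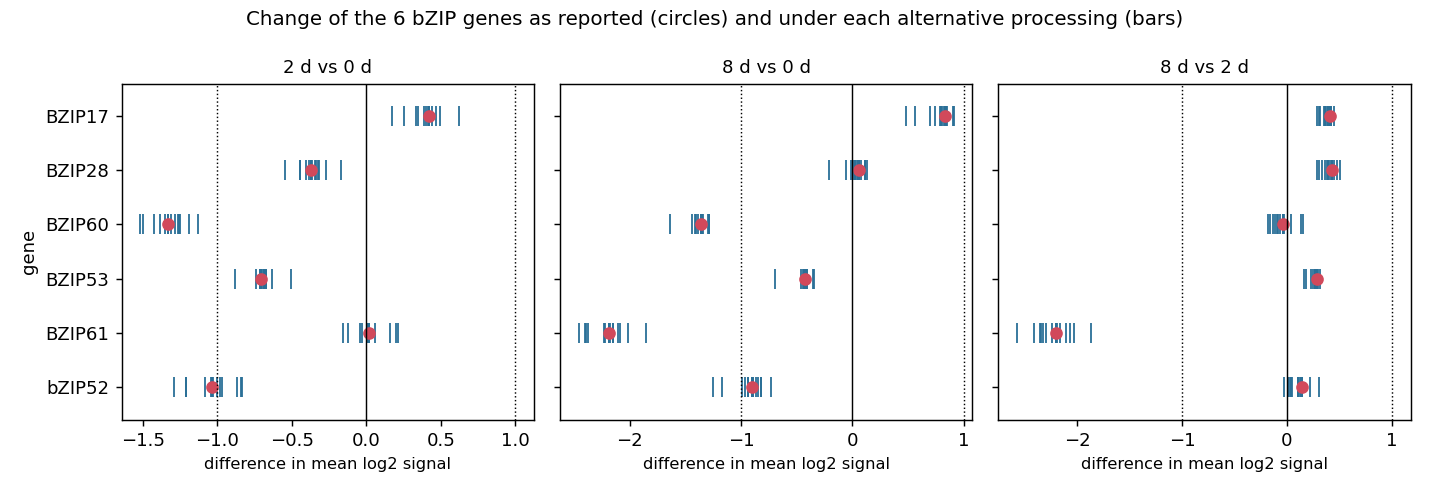
The 3 panels plot, for each of the 6 bZIP genes (vertical axis), the difference in mean log2 signal (horizontal axis) as reported (circle) and under each alternative processing (bars), with dotted lines at -1 and 1. The bars of BZIP60 stayed beyond -1 in both comparisons with 0 d and those of BZIP61 in both comparisons of 8 d, whereas those of bZIP52 lay on both sides of -1 at 2 d and at 8 d against 0 d.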

How the data were processed

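The deposited values are probe set intensities on a linear scale from 7.05 to 27573, in 1 table of 9 arrays. The submitters' processing notes name MAS5. How probe sets were chosen, the software version and the scaling target were not given in the sources used here. Detection calls were not used. The table held 23 control probe sets, left out of the tests, and 10343 others, of which 5521 have 1 gene in the array annotation, 214 several and 4608 none there. A listed gene counted as measured only where a probe set was paired with it alone. Other listed genes may lie among the probe sets with several genes or none. Symbols came from the annotation and the TAIR10.1 reference gene table.

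Signals had a floor of 1, which changed 0 values, and log2 was taken. Linear models with 1 mean per time point were fitted over the 9 arrays with limma 3.58.1 in R 4.3.3, adjusting by Benjamini-Hochberg. They were tested on simulated data with changes planted at 2 d against 0 d alone. Of 50 planted log2 changes of each size, 38% were called at a size of 1, 92% at 1.5 and 100% at 2. A change near 1 can therefore go uncalled. Sample titles gave the groups and replicate numbers.

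The genes, the gene lists (written by locus from general knowledge) and the tests were chosen with earlier results of these data known. The groups of the family are from general knowledge too. All 6 bZIP-named genes, all other measured family genes and LBD16 were named whatever their result, and called genes of the other lists. Uncalled ones were added as values with the results in view. Alternatives were other scalings, added constants, a filter on dim probe sets, another prior, fits of 2 groups alone, array weights, a replicate block, leaving out each array and other thresholds. Promoter and protein sequences were not analysed here.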

Additional observations from a re-analysis of the deposited data

How the results depend on the processing

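Over 20 alternative fits, 336 of 354 values of the 6 bZIP-named genes kept their direction and side of the threshold, 5 dropped below it, 2 passed it and 11 changed sign; the other family genes kept 442 of 459 and the list genes 514 of 531, and the cause of the changes was not tested. BZIP60 was called in all 20 fits at 2 d (-1.52 to -1.13) and at 8 d against 0 d (-1.64 to -1.29), and BZIP61 in all 20 at 8 d against 0 d (-2.46 to -1.86) and against 2 d (-2.57 to -1.87). At 2 d, 1 of the 6 genes was called instead of 2 after hybridisation control centring (against 19.5% of all probe sets), adding 16 (13.3%) or adding 64 (9.33%). The same held with array weights (14.3%) and without the dimmest 40% of probe sets (11.3%). That filter kept 4 of the 6 genes and dropped BZIP17 and bZIP52. Leaving out each array gave 1 to 2 called at 2 d, against 14.5% to 16.3% of all probe sets. It gave 2 to 2 at 8 d against 0 d (42.7% to 44.6%) and 1 to 1 at 8 d against 2 d (20.9% to 25.2%). Without a minimum fold 5, 5 and 4 of the 6 were called in 2 d vs 0 d, 8 d vs 0 d and 8 d vs 2 d. The shares of all probe sets were 63.5%, 90.1% and 76.5%. At a log2 change of at least 2 the counts were 0, 1 and 1, and the share of all probe sets there was not computed. Signs turned only for changes that were not called. BZIP28 at 8 d against 0 d was at -0.057 after quantile normalization, -0.21 after median centring and -0.0095 to 0.11 when 1 array was left out. BZIP61 at 2 d was at -0.045 after quantile normalization, -0.16 after median centring and -0.12 to 0.16 when 1 array was left out. From 2 d to 8 d, BZIP60 was at 0.14 with array weights and at -0.18 to 0.15 when 1 array was left out, and bZIP52 at -0.028 to 0.31. Other reversals after quantile normalization were AT1G06070 at -0.0055, AT5G44080 at -0.13 and S1P at -0.010 at 2 d, and AT2G31370 at -0.0055, AT4G38900 at -0.014, EXPA7 at 0.064 and GH3.3 at 0.23 from 2 d to 8 d. Median centring gave ATERDJ3B at -0.13 at 2 d, COR47 at -0.076 at 8 d against 0 d and AT4G38900 at -0.010 from 2 d to 8 d. Hybridisation control centring gave AT2G31370 at -0.00074 and AT4G38900 at -0.034 from 2 d to 8 d. Array weights gave ATERDJ3B at -0.055 at 2 d and AT2G40620 at 0.081 from 2 d to 8 d. Leaving out 1 array gave ATERDJ3B at -0.043 to 0.11 at 2 d, COR47 at -0.0038 to 0.33 at 8 d against 0 d, and AT2G40620 at -0.11 to 0.11 and EXPA7 at -0.43 to 0.17 from 2 d to 8 d. The replicate block left the counts at 2, 2 and 1, against 15%, 43.5% and 22.1% of all probe sets. Of the 9 same-numbered pairs across time points, 2 had deviations that correlated over 0.1. The correlations ran from -0.091 to 0.23, so the numbers were not taken to pair the arrays. Scaling moved the median change of all probe sets by -0.17 at 2 d and -0.27 at 8 d against 0 d after median centring, and 7.2% and 24.1% of all probe sets were then called and lower, 6.68% and 16.4% called and higher, against 5.2%, 18.1%, 9.75% and 25.4% as reported. Low signals, such as those of EEL at 0 d and BZIP61 at 8 d, limit the folds.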
